A study of Homo sapiens with 12 samples.

Results

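The 9 genes described here encode chains of type IV collagen (COL4A1, COL4A2, COL4A5 and COL4A6) and of laminin (LAMA3, LAMA5, LAMB1, LAMB3 and LAMC1), the main structural proteins of basement membranes. They were picked by symbol from a table of read counts for 60617 Ensembl genes, each symbol matched 1 identifier, and all 9 were among the 18524 genes that passed the filter on low counts. RNA sequencing had been done on A549 cells, a human lung adenocarcinoma line kept in serum-containing RPMI medium, in 4 groups of 3 libraries. The groups were cells with YTHDF1 knocked out and ARID1A silenced by small interfering RNA (the combined group), cells with the YTHDF1 knockout alone (YTHDF1 KO), cells with ARID1A silencing alone (siARID1A) and unmodified cells (WT). YTHDF1 is a cytoplasmic reader of N6-methyladenosine in RNA, and ARID1A is a DNA-binding subunit of the SWI/SNF chromatin remodelling complex. The labels name neither a clone nor a pool for the knockout and no control siRNA for the YTHDF1 KO or WT cells, and the titles call the YTHDF1 change a knockdown where the genotype field calls it a knockout. They number the libraries of a group as biological replicates without naming cultures or days.

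Basement membranes are thin sheets of extracellular matrix under epithelia, built on a laminin network and a collagen IV network that nidogens and perlecan link together. Each laminin is a trimer of 1 alpha, 1 beta and 1 gamma chain, put together inside the cell before secretion. LAMA5, LAMB1 and LAMC1 form a laminin that is widespread under adult epithelia, lung included, and LAMA3 and LAMB3 belong to the laminin that anchors epithelia such as skin through hemidesmosomes. Collagen IV chains also assemble in trimers. COL4A1 and COL4A2 make the form found in nearly all basement membranes, while COL4A5 and COL4A6 contribute to forms of more restricted distribution.

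The collagen IV genes lie in head-to-head pairs that are transcribed away from each other, so the stretches of DNA between their starts are shown first, as RefSeq gives them for GRCh38.p14. Each window runs from 250 bases before an annotated start to 50 bases from it, 5′ to 3′ on the strand of the named gene. Capitals mark, on either strand, the letters of the GC box (GGGCGG), the CCAAT box and the AP-1 site (TGANTCA), and no match of one overlaps a match of another in the windows shown. The COL4A2 window, chr13:110307034-110307333 on the plus strand, also holds the annotated start of COL4A1 at its base 124, because the 2 starts are 127 bases apart. The COL4A5 window, chrX:108439588-108439887 on the plus strand, and the window of the nearer COL4A6 start, chrX:108439409-108439708 on the minus strand, share 121 bases, with 380 bases between the starts. The LAMA3 window is chr18:23872770-23873069 on the plus strand and the LAMB1 window chr7:108003112-108003411 on the minus strand. The LAMB3 window, chr1:209651325-209651624 on the minus strand, belongs to 1 of the 3 annotated LAMB3 starts, base 209651374. That start lies further inside the annotated gene, which begins at base 209652466 on this strand, than the other LAMB3 starts do. The windows of these genes are shown because the levels of LAMA3, LAMB3 and LAMB1 had closely similar patterns across the groups. The LAMA3 start used, base 23873020, lies inside the annotated gene, which begins at base 23689443. Counts were taken over the whole gene.
COL4A2: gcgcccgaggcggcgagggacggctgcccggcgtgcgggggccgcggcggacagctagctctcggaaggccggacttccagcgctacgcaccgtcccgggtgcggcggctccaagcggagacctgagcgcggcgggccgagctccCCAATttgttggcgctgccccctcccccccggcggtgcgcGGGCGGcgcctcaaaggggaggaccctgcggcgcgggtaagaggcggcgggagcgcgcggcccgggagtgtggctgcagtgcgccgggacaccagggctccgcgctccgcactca
COL4A5: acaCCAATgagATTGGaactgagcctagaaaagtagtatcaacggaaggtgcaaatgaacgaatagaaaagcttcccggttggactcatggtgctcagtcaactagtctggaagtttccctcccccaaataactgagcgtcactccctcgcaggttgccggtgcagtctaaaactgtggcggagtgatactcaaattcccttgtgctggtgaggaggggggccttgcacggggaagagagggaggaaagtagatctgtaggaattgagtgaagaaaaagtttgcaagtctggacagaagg
COL4A6: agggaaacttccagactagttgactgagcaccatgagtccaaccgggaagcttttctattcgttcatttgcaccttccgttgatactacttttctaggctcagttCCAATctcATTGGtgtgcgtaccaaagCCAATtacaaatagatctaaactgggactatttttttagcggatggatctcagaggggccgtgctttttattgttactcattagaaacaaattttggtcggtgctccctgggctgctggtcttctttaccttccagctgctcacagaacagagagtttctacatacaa
LAMA3: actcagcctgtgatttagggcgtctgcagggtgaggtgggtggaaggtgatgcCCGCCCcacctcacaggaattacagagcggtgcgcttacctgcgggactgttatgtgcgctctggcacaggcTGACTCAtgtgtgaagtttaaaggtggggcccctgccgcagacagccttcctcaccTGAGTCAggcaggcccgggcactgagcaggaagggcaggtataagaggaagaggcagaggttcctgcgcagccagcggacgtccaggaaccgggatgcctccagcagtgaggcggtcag
LAMB3: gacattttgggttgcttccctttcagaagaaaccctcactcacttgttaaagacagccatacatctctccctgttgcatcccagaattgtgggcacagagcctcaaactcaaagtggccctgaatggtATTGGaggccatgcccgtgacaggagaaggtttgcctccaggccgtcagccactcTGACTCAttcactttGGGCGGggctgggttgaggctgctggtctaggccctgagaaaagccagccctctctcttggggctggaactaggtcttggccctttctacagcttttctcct
LAMB1: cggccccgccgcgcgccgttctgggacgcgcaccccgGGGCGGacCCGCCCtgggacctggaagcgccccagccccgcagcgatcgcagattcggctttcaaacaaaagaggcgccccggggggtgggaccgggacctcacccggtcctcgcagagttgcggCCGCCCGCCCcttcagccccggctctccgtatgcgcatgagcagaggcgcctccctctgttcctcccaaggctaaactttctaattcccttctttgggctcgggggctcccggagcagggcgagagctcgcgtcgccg
All 9 genes had an entry, with 12 windows in all. GC made up 77.7% of the COL4A2 window and 49.3% of the COL4A5 window. TGANTCA was found in 2 of the 12 windows, those of LAMA3 (2 matches, 125 and 69 bases before the start) and of LAMB3 (1 match, 67 bases before the start), and in 7.71% of 35116 promoter windows of the same length in the table. The LAMB1 window and the windows of the other LAMB3 starts had 0 matches to it. GGGCGG was found in 10 of the 12 windows (83.3%), against 45.0% of all windows, and CCAAT in 5 of the 12 (41.7%), against 34.6% of all windows. The TATA box motif TATAAA was in 0 of the 12 windows and in 11.5% of all windows. Some windows overlap, such as those of COL4A1 and COL4A2 by 226 bases and of COL4A5 and the nearer COL4A6 start by 121. Matches in shared bases were counted in each window, so the 12 windows are not independent. These matches describe the letters and are not evidence of binding.

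The libraries held 30220717 to 45042635 counts. YTHDF1 transcripts were at 35.1% of the WT mean in the combined group, 28.2% in YTHDF1 KO and 111% in siARID1A, and ARID1A transcripts were at 33.1%, 98.0% and 25.9% in the same order. WT replicate 2 stood apart: its counts differed from those of the other WT libraries with a chi-square per degree of freedom of 48.7 and 50.4, against 12.5 between those libraries and 3.35 to 12.9 within the other groups. For the collagen IV and laminin genes described at the start, the calls against WT are therefore also given without it. For the other collagen IV and laminin chains, the other gene lists and the markers, results against WT are given only with it included. Levels are given in CPM, the counts of a gene as a share of the scaled library size, and changes as log2 fold changes with their standard error (SE) and the Benjamini-Hochberg adjusted p of edgeR's quasi-likelihood test, called below 0.05. The interaction is the log2 change with siARID1A in YTHDF1 KO cells minus the change with siARID1A in WT cells. In bulk RNA, fewer cells with a transcript and less transcript per cell cannot be told apart.

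**Figure D1:**
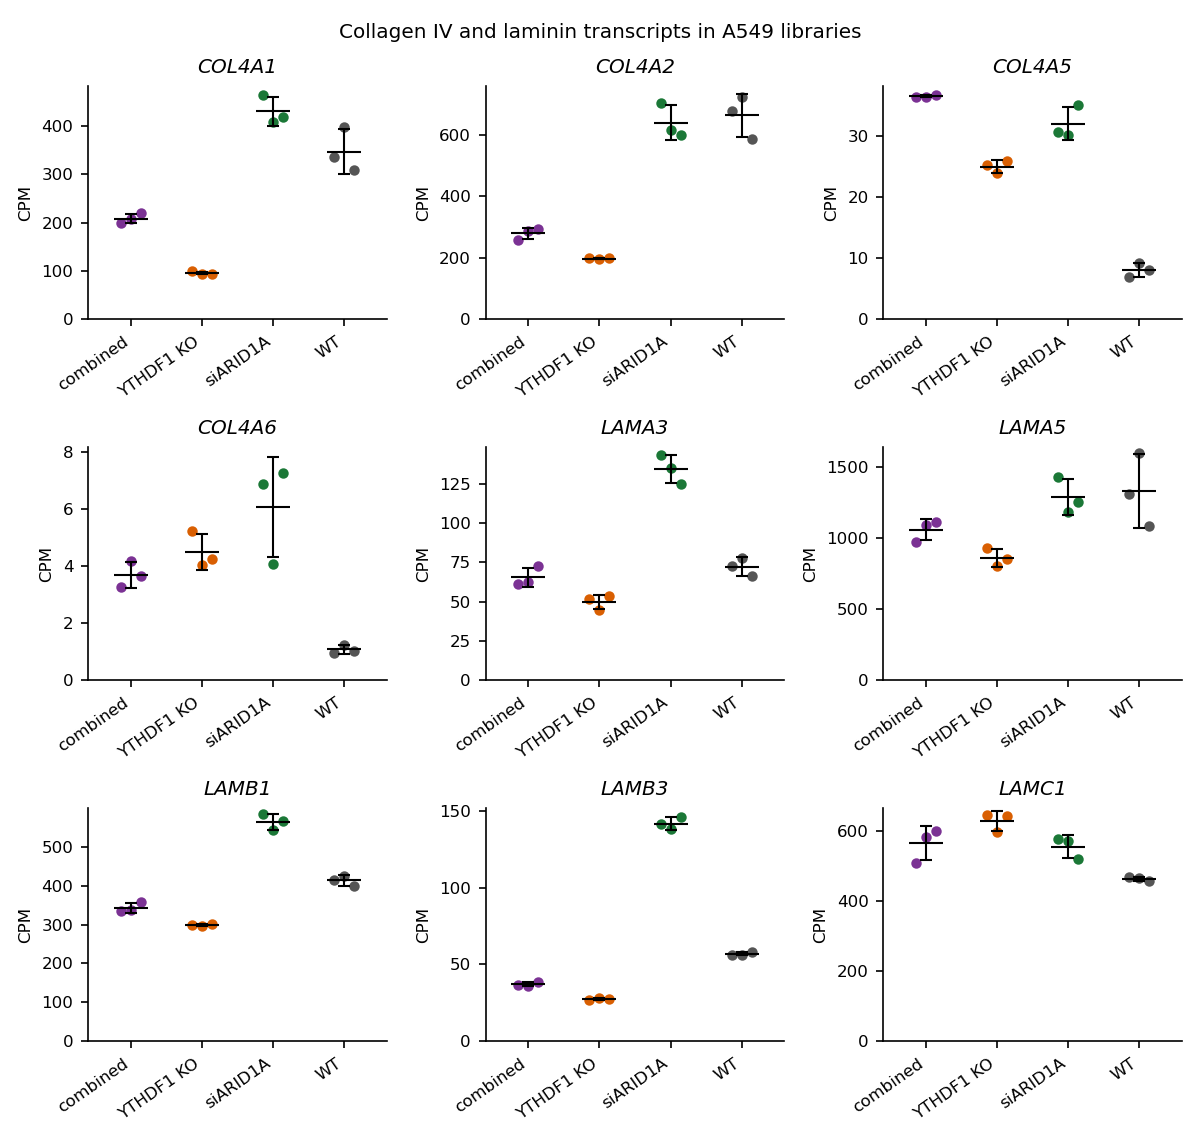
Level of each of the 9 genes in CPM (linear axis from 0) in the combined, YTHDF1 KO, siARID1A and WT libraries. Each point is 1 library and the bars are the mean ± SD of 3. COL4A1, COL4A2 and LAMB3 were lowest in YTHDF1 KO, while COL4A5 and COL4A6 were lowest in WT.

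YTHDF1 KO against WT split the 9 genes. COL4A1, COL4A2, LAMA3, LAMA5, LAMB1 and LAMB3 fell, and COL4A5, COL4A6 and LAMC1 rose, so that 9 of 9 were called, against 40.4% of all genes tested (19.6% higher and 20.8% lower). Their median log2 fold change was -0.54, against -0.01 over all genes. The libraries of the groups did not overlap for any of the 9, as for 48.7% of all genes. Without WT replicate 2 all 9 were still called in the same directions, with COL4A1 at -1.74 and COL4A6 at 2.19.

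siARID1A against WT had 7 of the 9 genes higher and 0 lower. In all 45.2% of genes tested were called in this comparison, 22.1% of them as higher. LAMB3, LAMA3, LAMB1, COL4A1, COL4A5, COL4A6 and LAMC1 rose, with a median over the 9 genes of 0.45 against -0.01 over all genes. COL4A2 and LAMA5 were not called, with log2 fold changes of -0.05 each. Non-overlapping libraries were found for 7 of the 9, as for 50.2% of all genes. Without WT replicate 2 the same 7 were called, with COL4A1 at 0.44 and LAMB3 at 1.33.

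The combined group against WT had COL4A5, COL4A6 and LAMC1 higher and COL4A1, COL4A2, LAMA5, LAMB1 and LAMB3 lower, with LAMA3 not called. These 8 calls of 9 stand beside 51.5% of all genes called (25.6% higher and 25.9% lower), and the median of the 9 genes was -0.27, against -0.01 over all genes. Scaling to the library totals alone, which moved the median of all genes to 0.13 in this comparison, left 3 genes lower and ended the calls of LAMA5 and LAMB1. No overlap was seen for 7 of the 9, as for 56.2% of all genes. Without WT replicate 2 the call of LAMA5 was lost and the other 7 were kept.

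The combined group against YTHDF1 KO had COL4A1, COL4A2, COL4A5, LAMA3, LAMB1 and LAMB3 higher and 0 genes lower, with a median of 0.39 against 0.01 over all genes. Across all genes 12.5% were higher and 10.9% lower. The combined group against siARID1A had 7 genes lower and 0 higher, with a median of -0.72 against 0.01 over all genes, where 35.4% of all genes were called and 17.2% were lower. COL4A5 and LAMC1 were the 2 not called there. In each of these comparisons 7 of the 9 genes had no overlap between libraries, as 43.7% of all genes did against YTHDF1 KO and 48.3% against siARID1A.

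**Figure D2:**
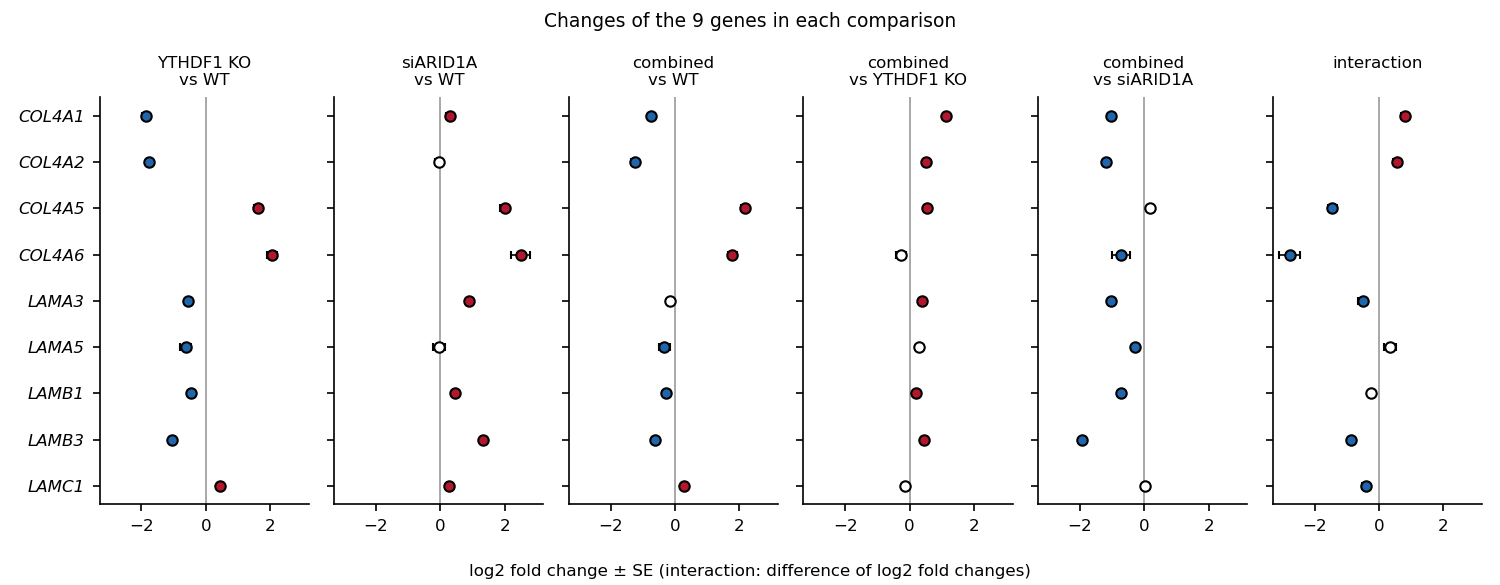
Log2 fold changes of the 9 genes (points) with their SE (bars) in 5 comparisons, and the interaction as a difference of log2 fold changes. Red points were called higher, blue points lower and open points were not called (edgeR, adjusted p at or above 0.05). LAMB3 lay furthest to the left in the combined group against siARID1A, at -1.94.

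COL4A1 (ENSG00000187498, chr13:110148963-110307233, minus strand) encodes the chain present in 2 copies in the common collagen IV trimer. Its level was 199.5, 206.3 and 219.0 CPM in the combined libraries, 98.7, 93.89 and 93.78 CPM in YTHDF1 KO, 464.1, 407.5 and 419.3 CPM in siARID1A, and 334.7, 398.1 and 308.0 CPM in WT. The 4 groups did not overlap: siARID1A was highest, then WT, then the combined group, then YTHDF1 KO. The means were 208 ± 9.88, 95.5 ± 2.81, 430 ± 29.9 and 347 ± 46.3 CPM (SD, n = 3 each) in the combined, YTHDF1 KO, siARID1A and WT groups. COL4A1 was at 27.5% of the WT mean in YTHDF1 KO, with a log2 fold change of -1.86 (SE 0.112, adjusted p = 3.51e-15). It rose by 0.31 in siARID1A against WT (SE 0.123, adjusted p = 0.00279) and by 1.13 in the combined group against YTHDF1 KO (SE 0.0462, adjusted p = 2.53e-10). The interaction was 0.82 (SE 0.131, adjusted p = 1.49e-05), so the change with siARID1A was larger in the knockout cells. The combined group stayed below WT, at -0.74 (adjusted p = 3.8e-08), and below siARID1A, at -1.05 (adjusted p = 1.69e-10).

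COL4A2 (ENSG00000134871, chr13:110305812-110513209, plus strand) encodes the partner chain of that trimer. It had 257.9, 287.1 and 292.6 CPM in the combined libraries, 199.7, 195.2 and 197.8 CPM in YTHDF1 KO, 704.8, 617.1 and 598.9 CPM in siARID1A, and 679.2, 723.9 and 588.3 CPM in WT. All combined and YTHDF1 KO libraries lay below all siARID1A and WT libraries, which overlapped. COL4A2 had a log2 fold change of -1.75 in YTHDF1 KO against WT (SE 0.089, adjusted p = 9.96e-15) and of -1.25 in the combined group against WT (SE 0.105, adjusted p = 3.53e-12). With siARID1A alone it was not called against WT (-0.05, SE 0.114, adjusted p = 0.636), and the sign turned to 0.04 without WT replicate 2. In the knockout background it was 1.41-fold higher with siARID1A (0.50, SE 0.0574, adjusted p = 6.14e-05), and the interaction was 0.55 (SE 0.128, adjusted p = 0.00125).

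The annotated bodies of COL4A1 and COL4A2 overlap at their 5′ ends on opposite strands. The library kit keeps strand, but the setting used in counting is not given in the sources used here, so the split of reads in that overlap is uncertain. The ratio of COL4A1 to COL4A2 within a library does not depend on the scaling between libraries. It was 0.747 ± 0.0273 in the combined group, 0.483 ± 0.0101 in YTHDF1 KO, 0.673 ± 0.0235 in siARID1A and 0.522 ± 0.0286 in WT (SD, n = 3 each). The ratio was thus higher in both groups that received the siRNA than in both that did not, with no overlap between them. On the log2 scale it was higher by 0.63 (SE 0.0351) in the combined group against YTHDF1 KO and by 0.37 (SE 0.0541) in siARID1A against WT. The exact two-sided permutation p was 0.1 for each, the smallest that 3 against 3 libraries allow, and 0.125 after adjustment over 25 ratio tests. YTHDF1 KO against WT overlapped, at -0.11 (SE 0.049, exact p = 0.2).

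COL4A5 (ENSG00000188153, chrX:108439844-108697545, plus strand) encodes a chain whose mutation causes X-linked Alport syndrome, a basement membrane disease of the kidney glomerulus. It had 36.46, 36.39 and 36.70 CPM in the combined libraries, 25.20, 23.91 and 25.87 CPM in YTHDF1 KO, 30.71, 30.22 and 35.16 CPM in siARID1A, and 6.893, 9.259 and 7.973 CPM in WT. Every library of the 3 modified groups was above every WT library, and the groups did not overlap one another. COL4A5 was 3.10-fold higher in YTHDF1 KO against WT (log2 1.63, SE 0.127, adjusted p = 2.17e-12). It was 3.97-fold higher in siARID1A against WT (log2 1.99, SE 0.14, adjusted p = 1.4e-13) and 4.53-fold higher in the combined group against WT (log2 2.18, SE 0.122, adjusted p = 5.72e-15). With siARID1A in the knockout background it rose by 0.55 (SE 0.0336, adjusted p = 0.000129). The interaction was -1.44 (SE 0.144, adjusted p = 6.22e-08), so the 2 changes together gave less than the sum of each alone on the log2 scale.

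COL4A6 (ENSG00000197565, chrX:108155607-108439497, minus strand) is the head-to-head neighbour of COL4A5 and had the lowest level of the 9 genes. It had 3.261, 4.170 and 3.652 CPM in the combined libraries, 5.207, 4.037 and 4.237 CPM in YTHDF1 KO, 6.886, 4.071 and 7.268 CPM in siARID1A, and 0.949, 1.237 and 1.036 CPM in WT. All 9 modified libraries were above the 3 WT libraries, and the modified groups overlapped one another. COL4A6 was higher than in WT by 2.05 in YTHDF1 KO (SE 0.155, adjusted p = 6.26e-08), by 2.49 in siARID1A (SE 0.285, adjusted p = 2.95e-09) and by 1.78 in the combined group (SE 0.147, adjusted p = 5e-07). In the combined group it was lower than in siARID1A by the test, with libraries that overlapped (-0.71, SE 0.283, adjusted p = 0.00663). That call rested on siARID1A replicate 3 and was lost without it (-0.56, adjusted p = 0.0563). The interaction of -2.77 (SE 0.322, adjusted p = 4.17e-07) was the largest in size of the 9 genes, at percentile 0.907 of all genes tested. siARID1A replicate 2 was lower than its partners for COL4A6, at 4.071 CPM, within the range of the YTHDF1 KO libraries.

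The COL4A5 to COL4A6 ratio was 9.99 ± 1.23 in the combined group, 5.62 ± 0.685 in YTHDF1 KO, 5.57 ± 1.61 in siARID1A and 7.48 ± 0.217 in WT (SD, n = 3 each). It was higher in the combined group than in each of the other groups with no overlap, by 0.82 against YTHDF1 KO, 0.86 against siARID1A and 0.45 against WT on the log2 scale (exact p = 0.1 and adjusted p = 0.125 for each). The log2 difference of this ratio from WT was -0.37 in YTHDF1 KO, with no overlap (exact p = 0.1, adjusted p = 0.125). In siARID1A it was -0.41, with overlap (exact p = 0.3, adjusted p = 0.312). Both genes were thus higher than in WT in every modified group, while their ratio lay apart from WT in the combined group and in YTHDF1 KO, in opposite directions. The ratio of COL4A5 to COL4A1 was 0.176 ± 0.00762 in the combined group, 0.262 ± 0.0121 in YTHDF1 KO, 0.0747 ± 0.00886 in siARID1A and 0.0232 ± 0.00265 in WT. Its log2 difference from WT was 2.91 (SE 0.102) in the combined group, 3.49 (SE 0.102) in YTHDF1 KO and 1.68 (SE 0.137) in siARID1A, each with no overlap (exact p = 0.1, adjusted p = 0.125).

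**Figure D3:**
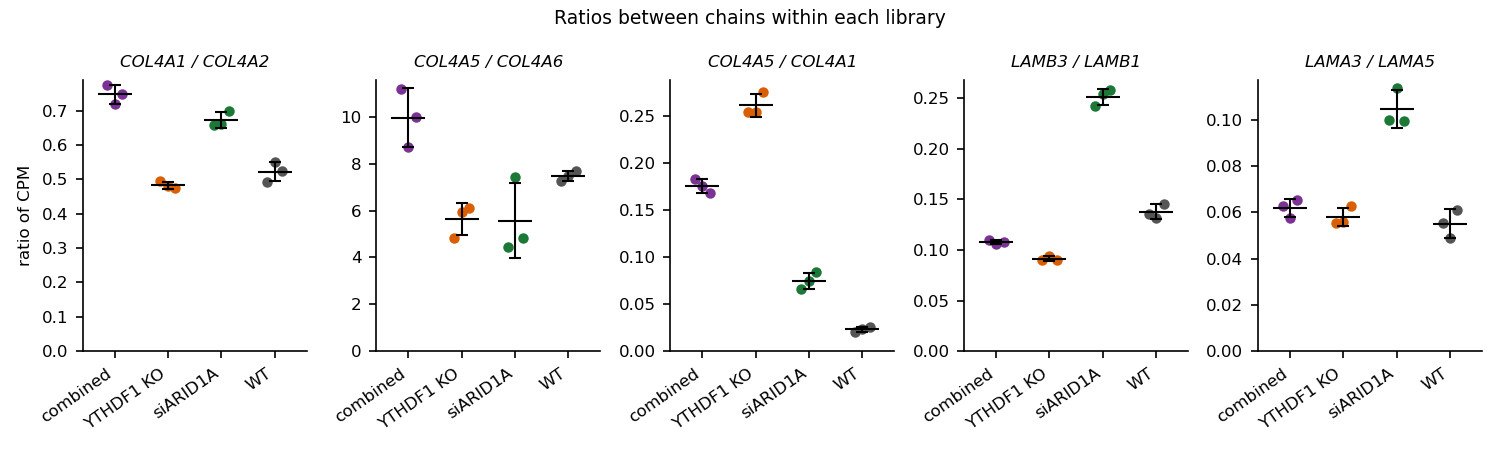
Ratios of CPM between chains within each library (linear axes from 0), with 1 point per library and the mean ± SD of 3 for the combined, YTHDF1 KO, siARID1A and WT groups. COL4A1 / COL4A2 is higher in both groups with the siRNA, and LAMB3 / LAMB1 and LAMA3 / LAMA5 are highest in siARID1A.

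Levels of different genes were compared per kilobase of merged exons. COL4A5 and COL4A6 together made up 10.01 ± 0.401% of the summed CPM per kilobase of the 6 collagen IV genes in the combined group, 12.2 ± 0.314% in YTHDF1 KO, 4.47 ± 0.487% in siARID1A and 1.26 ± 0.151% in WT (SD, n = 3 each). COL4A1 and COL4A2 made up 82.3 ± 0.552%, 78.8 ± 0.815%, 82.97 ± 2.92% and 91.5 ± 0.819% in the combined, YTHDF1 KO, siARID1A and WT groups. The common chains thus stayed the larger share in every library, while the X-linked pair had its smallest share in WT. The rise of that share in YTHDF1 KO went with both a lower summed level of COL4A1 and COL4A2 (293 ± 4.86 CPM, against 1011 ± 113 CPM in WT) and a higher summed level of COL4A5 and COL4A6 (29.5 ± 1.34 CPM, against 9.12 ± 1.33 CPM in WT). In siARID1A the X-linked pair summed to 38.1 ± 4.09 CPM, above all WT libraries, and COL4A1 and COL4A2 to 1071 ± 85.2 CPM, within reach of the WT libraries. With the length of the longest coding transcript as denominator, an alternative chosen after seeing the data, the share of COL4A5 and COL4A6 was 7.415%, 8.80%, 3.27% and 0.873% in the combined, YTHDF1 KO, siARID1A and WT groups, in the same order of groups.

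**Figure D4:**
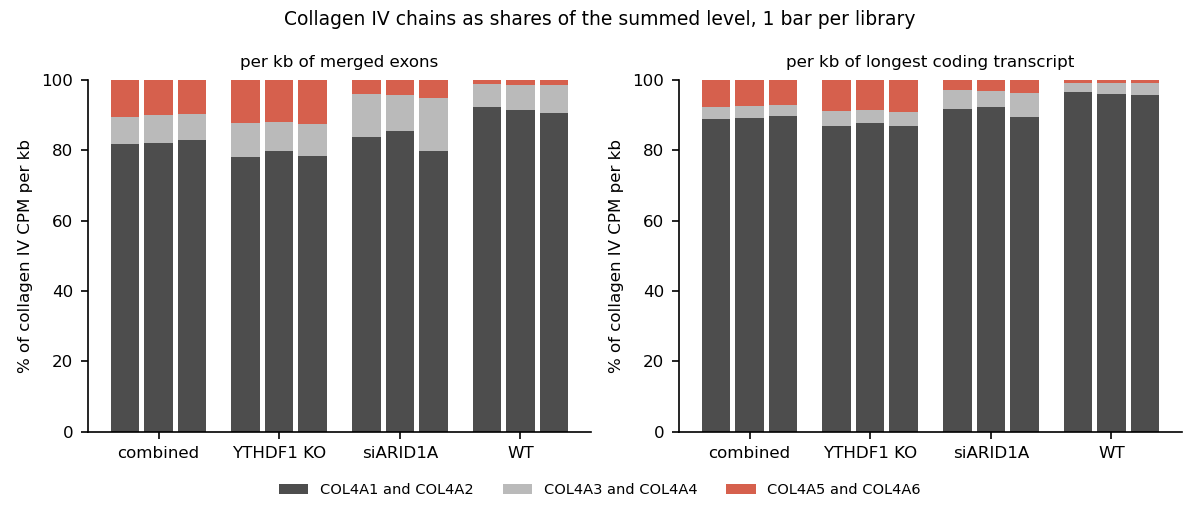
Share of the summed CPM per kilobase of the 6 collagen IV genes (%) taken by each gene pair, 1 bar per library, in the combined, YTHDF1 KO, siARID1A and WT groups, with 2 length denominators. On the left, with merged exons as denominator, the red share of COL4A5 and COL4A6 averages 1.26% in WT and is above 4% in every modified library.

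LAMA5 (ENSG00000130702, chr20:62307955-62367312, minus strand) encodes the alpha chain of the widespread epithelial laminin and had the highest CPM of the 9 genes. It had 970.6, 1089 and 1112 CPM in the combined libraries, 926.4, 800.4 and 852.2 CPM in YTHDF1 KO, 1425, 1183 and 1254 CPM in siARID1A, and 1309, 1597 and 1082 CPM in WT. WT spread widely, with replicate 2 highest, and only the YTHDF1 KO libraries lay below all others. For LAMA5 the fall in YTHDF1 KO was -0.63 against WT (SE 0.173, adjusted p = 6.54e-05), or -0.46 without WT replicate 2 (adjusted p = 5.76e-05). In siARID1A against WT LAMA5 was not called (-0.05, SE 0.181, adjusted p = 0.765). Its values for the combined group lay close to the threshold. It was -0.33 in the combined group against WT (adjusted p = 0.0143), a call lost without WT replicate 2 (-0.17, adjusted p = 0.0982) and without combined replicate 1 (-0.27, adjusted p = 0.0764). The combined group against siARID1A gave -0.28 (adjusted p = 0.0457), a call lost without any 1 combined or YTHDF1 KO library, without siARID1A replicate 1 or 3 and without WT replicate 1 (adjusted p = 0.052 to 0.216). Against YTHDF1 KO it was 0.30 (adjusted p = 0.0501), called without combined replicate 1 or siARID1A replicate 1 (adjusted p = 0.0465 each) and without WT replicate 2 (0.00445) or 3 (0.0162). The interaction of LAMA5 was 0.35 (SE 0.2, adjusted p = 0.135), and was called without WT replicate 3 (0.48, adjusted p = 0.0145).

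LAMA3 (ENSG00000053747, chr18:23689443-23956222, plus strand) encodes the alpha chain of the hemidesmosome laminin. It had 60.98, 62.65 and 72.49 CPM in the combined libraries, 51.47, 44.58 and 53.37 CPM in YTHDF1 KO, 143.1, 134.9 and 125.0 CPM in siARID1A, and 72.57, 77.94 and 66.08 CPM in WT. The siARID1A libraries were far above the rest, the YTHDF1 KO libraries were below the rest, and combined and WT libraries overlapped. LAMA3 fell by 0.54 in YTHDF1 KO against WT (SE 0.105, adjusted p = 1.28e-05) and rose by 0.89 in siARID1A against WT (SE 0.0892, adjusted p = 4.66e-09). In the combined group it was at -0.14 against WT (SE 0.104, adjusted p = 0.161), and at -0.23 with a call when combined replicate 3 was left out (adjusted p = 0.048). With siARID1A in the knockout background it rose by 0.39 (SE 0.111, adjusted p = 0.00121), less than in WT, with an interaction of -0.50 (SE 0.142, adjusted p = 0.00402). The LAMA3 to LAMA5 ratio was 0.0618 ± 0.00392 in the combined group, 0.058 ± 0.00404 in YTHDF1 KO, 0.105 ± 0.0081 in siARID1A and 0.0551 ± 0.00615 in WT. siARID1A stood above each of the other groups with no overlap, by 0.93 on the log2 scale against WT (SE 0.113, exact p = 0.1, adjusted p = 0.125).

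LAMB3 (ENSG00000196878, chr1:209614870-209652466, minus strand) encodes the beta chain that pairs with LAMA3. It had 36.81, 35.78 and 38.56 CPM in the combined libraries, 26.95, 27.87 and 27.28 CPM in YTHDF1 KO, 141.3, 138.0 and 146.0 CPM in siARID1A, and 56.41, 56.28 and 58.20 CPM in WT. The 4 groups were fully separated, with small spread inside each. LAMB3 was 2.49-fold higher in siARID1A against WT (log2 1.32, SE 0.0282, adjusted p = 6.19e-14) and fell by 1.06 in YTHDF1 KO against WT (SE 0.021, adjusted p = 2.41e-12). The combined group was lower than WT (log2 fold change -0.62, adjusted p = 2.14e-08) and lower than siARID1A (-1.94, adjusted p = 3.27e-17), which was percentile 2.22 of all genes. In the knockout background siARID1A raised it by 0.44 (SE 0.0345, adjusted p = 3.07e-05), and the interaction was -0.88 (SE 0.0445, adjusted p = 2.56e-07).

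LAMB1 (ENSG00000091136, chr7:107923799-108003255, minus strand) encodes the beta chain of the widespread laminin. It had 335.4, 336.9 and 357.7 CPM in the combined libraries, 300.0, 296.2 and 301.3 CPM in YTHDF1 KO, 584.5, 542.3 and 565.7 CPM in siARID1A, and 414.1, 426.0 and 399.7 CPM in WT. The order of the groups was that of LAMB3, with smaller steps and no overlap. LAMB1 fell by 0.47 in YTHDF1 KO against WT (SE 0.0276, adjusted p = 2.38e-06) and rose by 0.45 in siARID1A against WT (SE 0.0411, adjusted p = 4.08e-06). In the combined group it was lower than in siARID1A (log2 fold change -0.72, adjusted p = 2.88e-09) and lower than in WT (-0.27, adjusted p = 0.00132). Its rise over YTHDF1 KO was 0.20 (SE 0.0308, adjusted p = 0.0283), a call lost without combined replicate 2 or 3 and without any 1 YTHDF1 KO library (adjusted p = 0.0526 to 0.143). The LAMB1 interaction missed the threshold (-0.25, SE 0.0513, adjusted p = 0.0656) and passed it in 5 alternatives. In edgeR these were RLE scaling (adjusted p = 0.0413), upper quartile scaling (0.0303), at least 10 CPM (0.0248) and no WT replicate 2 (-0.30, 0.014). The other was DESeq2 (-0.27, adjusted p = 0.00732). DLD, a metabolic enzyme gene on the opposite strand, overlaps LAMB1 and had 27.8% as many counts. Its counts summed over 3 libraries were 12834 in the combined group, 12921 in YTHDF1 KO, 10628 in siARID1A and 13227 in WT. Those of LAMB1 were 39280, 34452, 55817 and 48593 in the same order. These sums are not scaled for depth, which was lower in every siARID1A library than in every WT library. The lower DLD sum in siARID1A is therefore not shown to be a fall in level.

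The LAMB3 to LAMB1 ratio was 0.108 ± 0.00177 in the combined group, 0.0915 ± 0.00229 in YTHDF1 KO, 0.251 ± 0.00854 in siARID1A and 0.138 ± 0.00692 in WT (SD, n = 3 each). No groups overlapped. The log2 ratio was higher by 0.87 in siARID1A against WT (SE 0.0503), and lower in YTHDF1 KO against WT (-0.59, SE 0.0463) and in the combined group against siARID1A (-1.22, SE 0.0316), each with exact p = 0.1 and adjusted p = 0.125. Of the 2 beta chains, LAMB3 thus moved further than LAMB1 in each of these comparisons.

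LAMC1 (ENSG00000135862, chr1:183023460-183145592, plus strand) encodes the gamma chain shared by most laminins. It had 508.3, 582.9 and 599.2 CPM in the combined libraries, 644.1, 594.9 and 641.8 CPM in YTHDF1 KO, 575.9, 569.8 and 518.0 CPM in siARID1A, and 466.5, 464.8 and 457.0 CPM in WT. All modified libraries were above WT, and the combined libraries overlapped both single changes. LAMC1 rose by 0.44 in YTHDF1 KO (SE 0.0385, adjusted p = 3.28e-05), by 0.26 in siARID1A (SE 0.0494, adjusted p = 0.00564) and by 0.28 in the combined group (SE 0.0739, adjusted p = 0.00237), each against WT. In the combined group it was at -0.15 against YTHDF1 KO (adjusted p = 0.144) and at 0.02 against siARID1A (adjusted p = 0.849), and the interaction was -0.41 (SE 0.096, adjusted p = 0.00659). LAMC1 was thus higher in YTHDF1 KO while LAMA5 and LAMB1, its partners, were lower.

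Of 8 other collagen IV and laminin chains, 2 were higher and 2 lower in YTHDF1 KO, 5 higher and 1 lower in siARID1A and 2 higher and 1 lower in the combined group, each against WT. Over all genes tested, 40.4%, 45.2% and 51.5% were called in these comparisons. COL4A3 and COL4A4, the third head-to-head pair of collagen IV, lie on chromosome 2. COL4A4 fell by 1.40 in YTHDF1 KO (SE 0.146, adjusted p = 7.75e-09) and rose by 0.92 in siARID1A (SE 0.193, adjusted p = 1.84e-06), each against WT. COL4A3 fell by 0.87 (SE 0.178, adjusted p = 0.000761) and rose by 1.41 (SE 0.274, adjusted p = 1.5e-06) in the same comparisons. The median log2 fold change of all genes of chromosome 2 was -0.405 in YTHDF1 KO against WT and 0.007 in siARID1A against WT, and its part in these values was not tested. For the chromosomes of the 9 genes, the medians lay from -0.02 to 0.11 in all comparisons. LAMA4, an alpha chain of vessel and muscle basement membranes, rose by 2.69 in siARID1A against WT (SE 0.0826, adjusted p = 6.28e-16) from a low level, with means of 47.99 CPM in siARID1A and 7.45 CPM in WT. LAMB2, another beta chain, fell by 0.55 in siARID1A against WT (SE 0.115, adjusted p = 2.99e-06), where LAMB1 and LAMB3 rose. LAMA1, LAMA2 and LAMB4 averaged under 1 CPM in every group.

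The changes with siARID1A could be compared between 2 backgrounds that share no library. Of the 7 genes higher in siARID1A against WT and the 6 higher in the combined group against YTHDF1 KO, 5 were common (71.4% and 83.3% of each list): COL4A1, COL4A5, LAMA3, LAMB1 and LAMB3. Over all genes tested, 1547 were higher in both, which is 37.7% and 66.8% of each list. The size differed by the interaction test for 7 of the 9 genes, against 17.1% of all genes tested (8.87% higher and 8.22% lower). COL4A1 and COL4A2 had positive interactions, with the larger rise in the knockout cells, while COL4A5, COL4A6, LAMA3, LAMB3 and LAMC1 had negative ones. LAMA5 and LAMB1 were not called. The changes with YTHDF1 KO, likewise in 2 sets of libraries with none in common, had 6 genes lower against WT and 7 lower in the combined group against siARID1A, and all 6 were among the 7: COL4A1, COL4A2, LAMA3, LAMA5, LAMB1 and LAMB3. Over all genes tested, 2011 were lower in both, which is 52.1% and 63.0% of each list. Of the 3 genes higher with the knockout in WT cells, COL4A5 was at 0.19 (SE 0.0692, adjusted p = 0.13), COL4A6 at -0.71 and LAMC1 at 0.02 in the combined group against siARID1A.

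**Figure D5:**
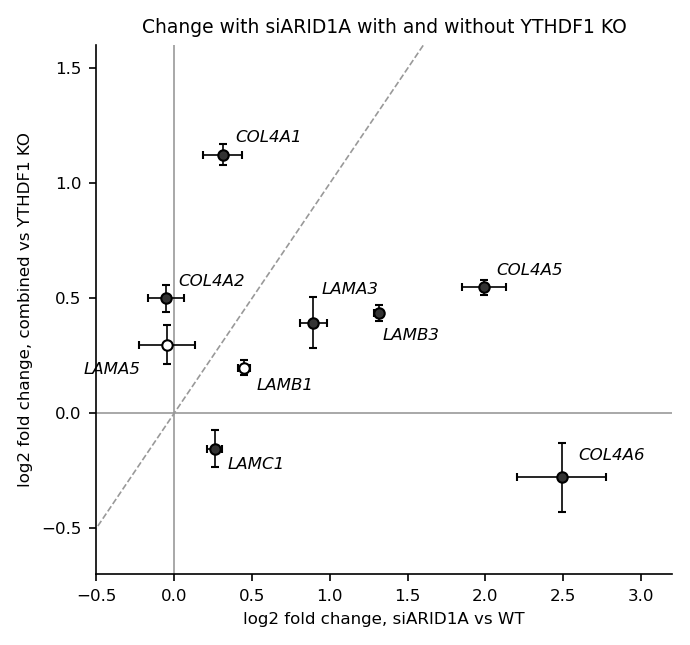
Log2 fold change with siARID1A in YTHDF1 KO cells (combined against YTHDF1 KO, vertical) and in WT cells (siARID1A against WT, horizontal) for the 9 genes, with SE bars. Filled points had an interaction called by edgeR (7 of 9) and the dashed line marks equal changes. COL4A1, COL4A2 and LAMA5 lie above the line and the other 6 below it.

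In order of level per kilobase of merged exons, WT cells had LAMA5 at 93.0, LAMC1 at 55.05, LAMB1 at 50.8, COL4A2 at 34.4, COL4A1 at 23.5, LAMB3 at 12.15, LAMA3 at 4.92, COL4A5 at 0.678 and COL4A6 at 0.116 CPM per kilobase, and no neighbours in this order overlapped. In YTHDF1 KO LAMC1 came first, at 74.6, ahead of LAMA5 at 60.15, also with no overlap between neighbours. In siARID1A LAMB3 stood at 30.2 and overlapped COL4A2 at 33.2 and COL4A1 at 29.2, and LAMB1 at 69.3 overlapped LAMC1 at 65.97. In the combined group LAMA5 at 73.99 overlapped LAMC1 at 67.0, and COL4A2 at 14.5 overlapped COL4A1 at 14.1. The order depends on the length used. Per kilobase of the longest coding transcript, also chosen after seeing the data, WT cells had LAMA5 at 116.3, COL4A2 at 102.2, LAMB1 at 71.7, LAMC1 at 58.7 and COL4A1 at 52.4 CPM per kilobase, with overlap between LAMA5 and COL4A2 and between LAMC1 and COL4A1. COL4A2 also came second in siARID1A, at 98.6, level with LAMB1 at 97.8, and LAMC1 at 79.5 overlapped LAMA5 at 75.2 in YTHDF1 KO. The order of LAMB3, LAMA3, COL4A5 and COL4A6 below the other 5 was the same in every group with this length. The 9 genes summed to 2594 ± 167 CPM in the combined group, 2185 ± 99.0 in YTHDF1 KO, 3791 ± 248 in siARID1A and 3354 ± 394 in WT (SD, n = 3 each).

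Among the 9 genes, log2 CPM over the 12 libraries correlated most closely for LAMB1 with LAMB3 (Pearson r = 0.993), LAMA3 with LAMB1 (0.974), LAMA3 with LAMB3 (0.970), COL4A1 with COL4A2 (0.951), and COL4A1 with LAMB1 and COL4A5 with COL4A6 (0.908 each). COL4A2 and LAMC1 had the lowest value, -0.705. These values describe 4 group means more than 12 independent points, and they carry no test. Among 9513 genes outside the 9, the most similar pattern to LAMB1 and to LAMB3 was that of UCP2, a mitochondrial carrier (r = 0.988 and 0.993). The most similar was CRYBG2 for COL4A2 (0.995), ALDH3B1 for COL4A1 (0.988), TM4SF18 for COL4A5 (0.993), CAV2 for COL4A6 (0.954), ST3GAL1 for LAMA3 (0.989), ANKRD52 for LAMA5 (0.967) and HAS3, a hyaluronan synthase, for LAMC1 (0.945). The next were PTGS2, which encodes an inducible cyclooxygenase, for COL4A5 (0.991), TENM3 for COL4A2 (0.993), TM4SF4 for COL4A1 (0.985), MXRA7 for COL4A6 (0.952), AMOTL1 for LAMA3 (0.985), NBEAL2 for LAMA5 (0.962), HECW1 for LAMB1 (0.988), RBPMS for LAMB3 (0.993) and SNX19 for LAMC1 (0.943).

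Other components of basement membranes were set beside the collagens and laminins. Of 16 tested, 5 were higher and 8 lower in YTHDF1 KO, 8 higher and 6 lower in siARID1A, and 6 higher and 8 lower in the combined group, each against WT. Of all genes tested, 19.6% were higher and 20.8% lower in YTHDF1 KO, and 22.1% higher and 23% lower in siARID1A. In the combined group 25.6% of all genes were higher and 25.9% lower. HSPG2, which encodes perlecan, fell with YTHDF1 KO (-0.50, adjusted p = 0.0105) and rose with siARID1A (0.43, adjusted p = 0.0217), as LAMA3, LAMB1 and LAMB3 did. NID1, a nidogen that links laminin to collagen IV, rose in YTHDF1 KO (1.07, adjusted p = 8.97e-09) and in siARID1A (0.59, adjusted p = 7.12e-05) against WT. Its relative NID2 was at 0.00 in YTHDF1 KO (adjusted p = 0.981) and rose in siARID1A (2.08, adjusted p = 3.49e-13). NTN4, a laminin-related netrin that binds laminin gamma chains, rose by 2.45 in YTHDF1 KO (adjusted p = 1.08e-18) and by 1.71 in siARID1A (adjusted p = 2.77e-15). TINAGL1 had log2 fold changes of -2.74 (adjusted p = 2.2e-16) and -2.81 (adjusted p = 9.69e-16) in the same order, all against WT.

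Of 23 tested genes for collagen processing and cross-linking, 9 were higher and 5 lower in YTHDF1 KO, 7 higher and 5 lower in siARID1A, and 8 higher and 3 lower in the combined group against WT. For this list and the receptors and proteases below, the shares called over all genes tested were 40.4%, 45.2% and 51.5% in these comparisons. SERPINH1, the collagen chaperone of the endoplasmic reticulum, rose in YTHDF1 KO (0.84, adjusted p = 5.33e-08), where COL4A1 and COL4A2 fell. LOXL2, a lysyl oxidase that cross-links collagen IV, was lower in the combined group against WT (-1.17, adjusted p = 1.25e-11). Of 18 receptors for laminin and collagen IV, 7 were higher and 6 lower in YTHDF1 KO, 8 higher and 1 lower in siARID1A, and 9 higher and 6 lower in the combined group. ITGA2, a collagen receptor subunit, rose by 2.16 in YTHDF1 KO (adjusted p = 3.87e-17) and ITGA3, a laminin receptor subunit, by 1.10 (adjusted p = 3.1e-11). ITGB4, the beta subunit of the hemidesmosome integrin that binds the LAMA3 laminin, fell in YTHDF1 KO (-0.58, adjusted p = 2.09e-06), rose in siARID1A (0.43, adjusted p = 0.000109) and was lower in the combined group than in siARID1A (-1.25, adjusted p = 5.34e-12), the same directions as LAMA3 and LAMB3. Of 17 proteases and inhibitors tested, 6 were higher and 6 lower in YTHDF1 KO, 8 higher and 3 lower in siARID1A, and 6 higher and 7 lower in the combined group.

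Markers of cell types were summed as a check of the cultures. Against WT, 51.5% of all genes tested were called in the combined group, 40.4% in YTHDF1 KO and 45.2% in siARID1A. In the combined group 23.4% of all genes were called against YTHDF1 KO and 35.4% against siARID1A. Epithelial markers (7 of 8 tested) summed to 3893 to 4201 CPM in the combined libraries, 3533 to 3803 CPM in YTHDF1 KO, 6903 to 8349 CPM in siARID1A and 7788 to 9943 CPM in WT. Of these 7, 0 were higher and 4 lower in the combined group, 0 higher and 5 lower in YTHDF1 KO and 3 higher and 1 lower in siARID1A, each against WT. In the combined group 3 were higher and 0 lower against YTHDF1 KO, and 0 were higher and 6 lower against siARID1A. These calls moved with falls and rises of collagen IV and laminin genes in the same comparisons, and their part in them was not tested. Endothelial markers (3 of 8 tested) summed to at most 1.56, 2.28, 4.20 and 10.1 CPM in the combined, YTHDF1 KO, siARID1A and WT libraries. Of these 3, 1 was higher and 2 lower in the combined group, and 0 were higher and 2 lower in both YTHDF1 KO and siARID1A, each against WT, beside the falls of COL4A1 and COL4A2 in the combined group and YTHDF1 KO, and their part in those falls was not tested. Fibroblast and smooth muscle markers (6 of 9 tested) ranged over 48.5 to 66.05, 50.9 to 56.9, 47.5 to 67.1 and 35.1 to 61.8 CPM in the same order. Of the 6, 4 were higher in the combined group, 3 in YTHDF1 KO and 4 in siARID1A against WT, with 0 lower, beside the rises of COL4A5, COL4A6 and LAMC1, and their part in those rises was not tested. Blood cell markers (1 of 9 tested) reached at most 1.07 CPM in any library, with CD3D at 0. Alveolar type 2 markers (2 of 8 tested, ABCA3 and LAMP3) summed to 72.8 to 78.45 CPM in the combined group, 63.6 to 68.3 in YTHDF1 KO, 76.1 to 80.5 in siARID1A and 45.55 to 55.8 in WT, and the surfactant protein genes did not pass the filter.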

How the data were processed

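Per the submitters' processing notes, the genome build was GRCh38 and the tools were edgeR 3.32.1, STAR 2.7.0d, Trim Galore 0.6.6 and featureCounts 2.0.1, and per the labels the kit was stranded. The annotation release and strand setting are not given in the sources used here. The authors deposited raw counts per Ensembl gene. Of 60617 identifiers, 60261 matched a symbol table and 58542 the GENCODE 29 annotation, which gave positions and exon lengths.

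Counts of the 12 libraries (30220717 to 45042635) were filtered with filterByExpr, which kept 18524 genes and left out 42093, scaled by TMM (factors 0.912 to 1.055) and fitted with edgeR 4.0.16 in R 4.3.3, with 1 coefficient per group and a robust quasi-likelihood test. The Benjamini-Hochberg adjustment was over all genes tested, with a threshold of 0.05. The biological coefficient of variation was 9.44%. Standard errors came from replicate SDs of log2 CPM with a prior count of 2. Ratios were compared with exact permutation tests in scipy 1.17.1. The fit was tested on simulated data. The members, gene lists and tests were chosen with earlier results of these data known. Named genes outside the members were up to 3 per list and comparison with the largest called change and at least 5 CPM, of which a part is printed, the other collagen IV and laminin chains, and the most correlated genes of at least 10 CPM. Some genes that these rules name are not reported here. Values of such genes are also given in comparisons where they did not qualify. Alternatives were other scalings, filters, DESeq2 1.42.0, prior counts of 0.5 and 8, a replicate block, only the groups compared, leaving out chromosomes 2 and 9, and each library left out in turn. P-values measure the spread between these libraries, which may be technical.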

Additional observations from a re-analysis of the deposited data

Results flagged for a closer look

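For 7 of the 9 genes the change with siARID1A differed between YTHDF1 KO and WT cells by edgeR's test of the interaction, in log2 units of the change in YTHDF1 KO cells minus the change in WT cells. It was 0.82 for COL4A1 (log2 change of 1.13 in YTHDF1 KO cells, against 0.31 in WT cells) and 0.55 for COL4A2 (0.50, against -0.05). It was -1.44 for COL4A5 (0.55, against 1.99) and -2.77 for COL4A6 (-0.28, against 2.49). Among the laminin genes it was -0.50 for LAMA3 (0.39, against 0.89), -0.88 for LAMB3 (0.44, against 1.32) and -0.41 for LAMC1 (-0.15, against 0.26). Adjusted p-values ran from 6.22e-08 for COL4A5 to 0.00659 for LAMC1. These 7 calls and their signs held in every alternative in which the gene was tested, and COL4A6 was not tested with the filter of at least 10 CPM.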

How the results depend on the processing

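Of 1119 recomputed log2 fold changes of the 9 genes, 1066 kept their direction and side of the threshold, 18 became called, 22 lost their call and 13 changed sign, all of the last uncalled in the original fit. With library totals 3 genes instead of 5 were lower in the combined group against WT, and the share of higher genes among all calls rose to 61.2% from 48.5% in YTHDF1 KO, 63.4% from 49.7% in the combined group (both against WT), 63.5% from 53.5% in the combined group against YTHDF1 KO and 62.2% from 51.3% against siARID1A. With only the groups compared, 1 gene instead of 0 was lower in the combined group against YTHDF1 KO (LAMC1, -0.16, adjusted p = 0.0395). Sign changes were LAMA5 in siARID1A against WT (0.0043 with upper quartile factors, 0.0070 with library totals, 0.0055 with at least 10 CPM, 0.0079 without siARID1A replicate 2 and 0.13 without WT replicate 2, in a range of -0.18 to 0.13 with 1 library left out), COL4A2 in the same comparison (0.0050 with library totals, 0.0002 with at least 10 CPM, and 0.0352 without WT replicate 2, in a range of -0.14 to 0.0352), LAMC1 in the combined group against siARID1A (-0.0147, -0.0031 and -0.0069 with upper quartile factors, at least 10 CPM and without chromosomes 2 and 9, and -0.0225 and -0.0227 without combined replicate 3 or siARID1A replicate 3, in a range of -0.0227 to 0.0956) and the LAMA3 to LAMA5 log2 ratio in YTHDF1 KO against WT (-0.0077 without WT replicate 2, in a range of -0.0077 to 0.15, against 0.08); the cause was not tested. Leaving out 1 library gave 5 to 7 genes higher in the combined group against YTHDF1 KO, 4 to 6 lower against WT and 5 to 7 lower against siARID1A, and 2 to 3 higher and 5 to 6 lower interactions. The LAMA5 call in the combined group against siARID1A was lost in 11 alternatives (adjusted p from 0.052 to 0.219 in these) and its change against YTHDF1 KO became called in 9 (0.000438 to 0.0465 in these). Correlations between deviations of same-numbered libraries were small (r from -0.0425 to 0.0334). The best match had its own number in 17 of 36 cases, each chosen among 3 libraries of another group. Against WT, a replicate block gave 7285 instead of 7489 calls in YTHDF1 KO and 8167 instead of 8368 in siARID1A. In the combined group against WT the block gave 9346 instead of 9537. It gave -0.28 for LAMA5 in the combined group against siARID1A (adjusted p = 0.0645), the only call among the 9 genes it changed. Depth limits the precision of COL4A6, at about 1 CPM in WT.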
